A study of Mus musculus with 6 samples.

Results

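Salt, chloride, bicarbonate and monocarboxylate carriers of the intestinal epithelium were examined as a set of 9 genes: Slc9a3, Slc9a2, Slc26a3, Slc26a6, Cftr, Slc12a2, Slc4a4, Slc5a8 and Slc16a9. They were chosen by function, as rows of the gene count table whose Ensembl identifiers map to these symbols, and were selected with results of the comparison of knockout with control already known. The differences between the genotypes are therefore given as a description. The table holds 55450 genes, of which 15028 passed the filter on low counts, and all 9 transport genes were among those. The data are polyA RNA-seq counts from intestinal epithelial cells of 6 mice, 1 library per mouse, with total counts between 23476031 and 46835165 per library. All 6 mice carried floxed (loxP/loxP) alleles of Ncor1 and of a second corepressor gene. All received tamoxifen intraperitoneally at 8 to 9 weeks of age (15 mg per 100 g body weight for 5 days) and were housed singly. They were monitored for 20 days, with cage placement on day 21. The 3 controls (animals 482, 483 and 486) were Vil1-Cre-ERT2-, and the 3 knockouts (animals 423, 476 and 477) were Vil1-Cre-ERT2+. Vil1-Cre-ERT2 is a tamoxifen-activated Cre recombinase driven by the villin promoter, which is active in epithelial cells along the crypt and the villus. Since only the knockouts had the transgene, deletion and Cre cannot be told apart. The protocol divides the small intestine into duodenum, jejunum and ileum, but no label states which of these a library came from.

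Absorptive enterocytes take up salt from the lumen by pairing sodium-proton exchange with chloride-bicarbonate exchange at the brush border, while crypt cells secrete chloride and bicarbonate through the apical channel CFTR. The secreting cells load chloride and bicarbonate across the basolateral membrane on sodium-coupled cotransporters, and the sodium pump keeps the sodium gradient that drives both directions of transport. Short monocarboxylates such as lactate and short-chain fatty acids enter on sodium-coupled or proton-coupled carriers.

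Among the 9 genes the knockouts had more RNA for the brush border sodium-proton exchanger Slc9a3 and the carrier gene Slc16a9, and less for Cftr, the sodium-bicarbonate cotransporter Slc4a4 and the sodium-coupled monocarboxylate transporter Slc5a8. Levels are given as CPM, counts per 1000000 of the library total after TMM scaling. The fitted levels rose 5.37-fold for Slc9a3 and 63.8-fold for Slc16a9. They fell 5.27-fold for Cftr, 4.56-fold for Slc4a4 and 185-fold for Slc5a8. These 5 of 9 genes passed an adjusted p threshold of 0.05 in the fit over all tested genes (edgeR's quasi-likelihood test with Benjamini-Hochberg adjustment), 2 upward and 3 downward. Over all tested genes 35.6% passed, 17.3% upward and 18.3% downward. Slc9a2, Slc26a3, Slc26a6 and Slc12a2 did not pass. For 8 of the 9 genes the range of the knockout libraries lay apart from that of the controls, as for 50.3% of all tested genes, with the knockouts above for 3 and below for 5. Because the genes were selected on this same comparison, nothing is read from these shares. The median log2 fold change of the 9 genes was -0.48, beside -0.06 for all tested genes, and the median absolute log2 fold change was 2.19, beside 0.66. In a bulk sample, fewer cells of a type and less RNA per cell cannot be told apart.

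**Figure D1:**
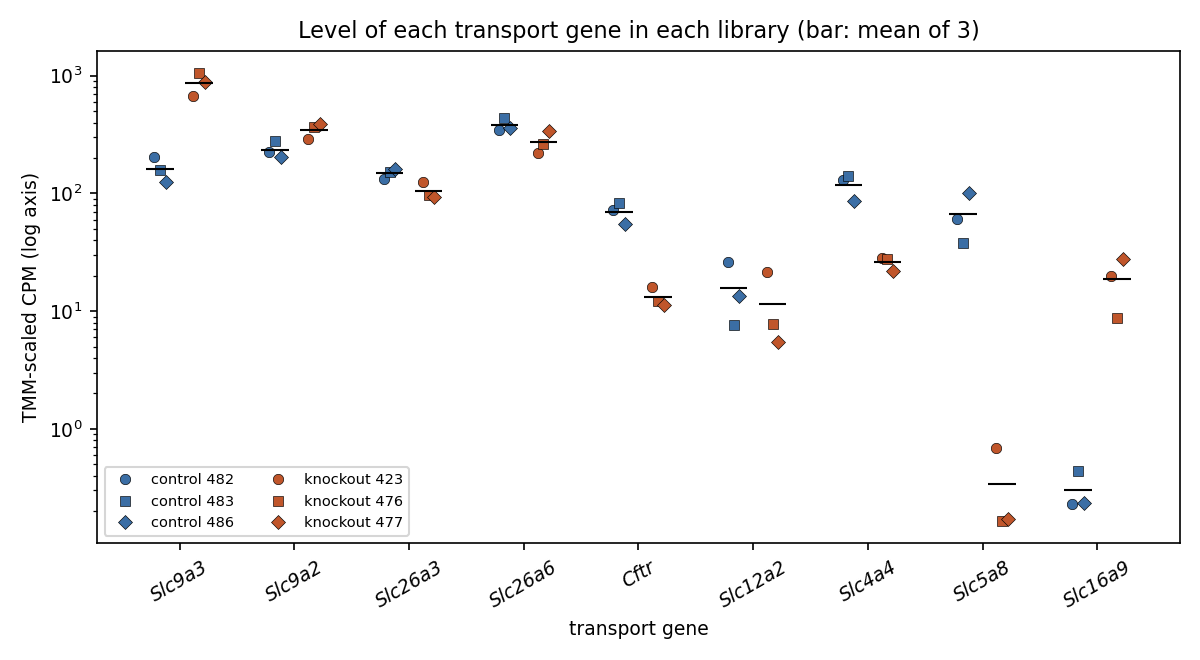
Level of each of the 9 transport genes in each library, as TMM-scaled CPM on a log axis, with blue for controls, orange for knockouts, a marker shape per animal and a bar at the mean of the 3 libraries. Slc5a8 and Slc16a9 exchange places between the genotypes, and Slc12a2 is the 1 gene whose control and knockout libraries overlap.

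The libraries matched their labels in the deleted gene: the Ncor1 level, counted over the whole gene, was 99.3 to 140 CPM in controls and 22.5 to 36.4 CPM in knockouts. Summed epithelial marker levels were 12041 to 13475 CPM in controls and 9163 to 13124 CPM in knockouts, and 1 of 9 of these markers (Vil1) fell. Of the 6 colon markers in the table, Car1 and Krt36 had no count in any library. Markers of several other cell types also moved with genotype. All 8 tuft cell markers fell (summed 82.0 to 255 CPM in controls, 1.73 to 10.5 in knockouts), as did 5 of 7 Paneth cell markers (1053 to 5061 CPM and 731 to 1223 CPM). All 5 erythrocyte markers rose (7.95 to 22.2 CPM and 35.5 to 543 CPM), and knockout 477 had the highest sum. Of 10 tested leukocyte markers 2 fell (106 to 384 CPM and 57.3 to 164 CPM), and 0 of 10 mesenchyme and smooth muscle markers passed (13.7 to 51.8 CPM and 11.4 to 69.4 CPM). Among 7 villus tip markers 3 rose and 2, Egfr and Klf4, fell (16718 to 24046 CPM and 27432 to 55351 CPM). Most of that sum was the single gene Apoa4 (13343 to 21117 CPM and 24391 to 48829 CPM), and the median log2 fold change of the 7 was -0.50. Of 5 proximal small intestine markers Pdx1 and Slc40a1 rose and Lct fell (1698 to 2788 CPM and 173 to 221 CPM). In controls most of the proximal sum was Lct (1580 to 2680 CPM, against 38.8 to 75.4 CPM in knockouts), and the median log2 fold change of the 5 was 1.11. Of 6 distal markers 1 rose (468 to 768 CPM and 517 to 815 CPM). The part of these shifts in the transport results was not tested.

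The promoter windows of Slc9a3, Slc4a4, Slc5a8 and Slc16a9, 4 of the 5 called genes, are printed because each holds a match to a motif marked below, each as the 250 bases upstream of a RefSeq transcript start on GRCm38.p6 (mm10), plus strand, 5′ to 3′. The capitals mark matches to AGGTCA, the core half-site bound by many nuclear receptors, to its variant AGGGCA, or to the E-box CACGTG, on either strand. The Slc4a4 window belongs to the downstream of 2 annotated starts.
Slc9a3, chr13:74121163-74121412: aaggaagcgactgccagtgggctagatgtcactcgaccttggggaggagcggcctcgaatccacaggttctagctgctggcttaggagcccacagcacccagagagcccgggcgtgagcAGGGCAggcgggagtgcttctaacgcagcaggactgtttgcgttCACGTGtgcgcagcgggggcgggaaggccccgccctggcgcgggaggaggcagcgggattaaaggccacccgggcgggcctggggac
Slc4a4, chr5:89027716-89027965: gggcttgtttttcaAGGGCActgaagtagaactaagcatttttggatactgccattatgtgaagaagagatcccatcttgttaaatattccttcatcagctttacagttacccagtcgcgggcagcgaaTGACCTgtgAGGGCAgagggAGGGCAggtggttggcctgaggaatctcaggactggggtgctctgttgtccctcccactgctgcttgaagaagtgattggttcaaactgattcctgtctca
Slc5a8, chr10:88885742-88885991: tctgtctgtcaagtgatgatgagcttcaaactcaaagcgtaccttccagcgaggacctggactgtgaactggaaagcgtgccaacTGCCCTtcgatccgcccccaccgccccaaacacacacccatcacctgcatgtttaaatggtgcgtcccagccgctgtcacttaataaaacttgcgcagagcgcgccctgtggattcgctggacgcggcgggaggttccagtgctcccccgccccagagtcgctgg
Slc16a9, chr10:70245026-70245275: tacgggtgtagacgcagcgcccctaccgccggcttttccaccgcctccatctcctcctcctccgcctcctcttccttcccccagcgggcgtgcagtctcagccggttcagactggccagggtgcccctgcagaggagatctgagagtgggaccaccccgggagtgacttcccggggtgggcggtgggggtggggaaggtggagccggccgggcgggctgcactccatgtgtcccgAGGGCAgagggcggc

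Windows were found for 7 of the 9 genes (8 windows, Slc4a4 having 2), Slc9a2 and Slc12a2 being without one. In all, 12 motifs were searched on both strands: AGGTCA, its direct repeats (a pair of copies of those letters with 1 or 4 bases N between them), the variants AGGGCA and GGGTCA, the HNF4 motifs CAAAGTCCA and CAAAGT, the CDX motif TTTATG, the HNF1 half-site GTTAAT, the GATA motif TGATAA, the E-box CACGTG and the TATA box TATAAA. The half-site AGGTCA lies inside both direct repeats, and CAAAGT lies inside CAAAGTCCA. The variant AGGGCA was present in 5 of the 8 windows, those of Slc9a3, Slc26a6, Slc5a8, Slc16a9 and the downstream start of Slc4a4, and in 17.5% of all 32851 windows of this length. The half-site AGGTCA was present in the windows of Slc26a3 and of the downstream start of Slc4a4, and in 14.0% of all windows. The Slc4a4 window holds 3 copies of AGGGCA and 1 AGGTCA, on the minus strand, within its 250 bases. CACGTG was present only in the Slc9a3 window, and in 6.02% of all windows. Neither direct repeat was in any of the 8 windows, and they were in 0.0335% and 0.0152% of all windows. CAAAGT was in the upstream Slc4a4 window (12.6% of all windows), and GTTAAT (6.43%) and TATAAA (12.4%) were in that of Slc26a3. The other motifs, with shares of 11.6% for GGGTCA, 0.384% for CAAAGTCCA, 10.8% for TTTATG and 7.94% for TGATAA, were in none of the 8. The windows differed in base composition, with GC contents of 67.6% for Slc9a3, 58.8% for Slc5a8, 70.4% for Slc16a9, 76.4% for Cftr, 53.2% for Slc26a6 and 38.8% for Slc26a3, against a median of 52.4% over all windows. The upstream Slc4a4 window had 82% and the downstream one 48.8%. A match describes the letters only and is neither a bound site nor a cause.

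Slc9a3 encodes NHE3, the exchanger that takes up most luminal sodium in the small intestine in return for protons. Slc9a3 (ENSMUSG00000036123, mm10 chr13:74121457-74169442, plus strand) measured 203, 158 and 126 CPM in controls 482, 483 and 486, and 672, 1051 and 888 CPM in knockouts 423, 476 and 477. Every knockout library was above every control library, and the lowest knockout was 3.32 times the highest control. The means were 162 ± 38.6 and 870 ± 190 CPM (SD, n = 3 each). The log2 fold change was 2.43 (SE 0.28), and 320 tested genes had a higher one.

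Slc9a2 encodes NHE2, a second apical sodium-proton exchanger. It (ENSMUSG00000026062, chr1:40680574-40769273, plus strand) stood at 226, 278 and 203 CPM in the controls and at 289, 369 and 386 CPM in the knockouts. The groups did not overlap, but the lowest knockout was only 1.04 times the highest control. The log2 fold change of 0.56 (SE 0.23) did not pass (edgeR quasi-likelihood test, adjusted p = 0.080), and a p above the threshold does not show that the genotypes were alike. It passed with DESeq2 (0.59) and after each library's trend with exon length and GC content was removed (1.09). With scaling by library size alone the log2 fold change of Slc9a2 was only 0.10 and did not pass. The balance of the 2 exchangers shifted within each library: per exon length, Slc9a3 over Slc9a2 was 1.14, 0.719 and 0.786 in the controls and 2.95, 3.62 and 2.92 in the knockouts. This ratio does not depend on how the libraries were scaled, and its groups did not overlap.

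Of the 12 tested other genes of sodium-proton exchange and its scaffolds (15 listed), 1 rose, 5 fell and 6 did not pass, with a median log2 fold change of -0.71. The gene that rose was the apical and Golgi exchanger Slc9a8 (log2 fold change 0.75), which was named after its value was seen. Among those that fell were Pdzk1 (-1.02) and Pdzd3 (-0.76), whose products are PDZ scaffolds that bind NHE3 at the brush border. The call of Pdzd3 was lost without control 483, knockout 423 or knockout 477. That of Slc9a5 (-2.40), a low-abundance exchanger, was lost without control 482 or any 1 of the knockouts, and with limma-voom (-1.98). Slc9a3r1, encoding the scaffold NHERF1, had a mean of 1477 ± 115 CPM in controls and 1113 ± 321 CPM in knockouts (SD, n = 3 each) and did not pass (log2 fold change -0.41). Ezr, encoding the linker ezrin (-0.66), Chp1 (0.20) and Chp2 (-0.20), encoding cofactors of the exchangers, did not pass either. For Ezr every knockout library was below every control library. With scaling by library size alone Slc9a3r1 (-0.87) and Ezr (-1.12) passed.

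Slc26a3 encodes DRA, the brush border chloride-bicarbonate exchanger that works beside NHE3 in salt absorption. Slc26a3 (ENSMUSG00000001225, chr12:31390871-31473917, plus strand) stood at 134, 152 and 162 CPM in the controls and at 126, 97.6 and 92.6 CPM in the knockouts. The knockouts were below the controls, with control 482 only 1.06 times knockout 423. The log2 fold change was -0.50 (SE 0.21) and did not pass (edgeR quasi-likelihood test, adjusted p = 0.085). Slc9a3 over Slc26a3, the ratio of the 2 exchangers per exon length, was 1.76, 1.20 and 0.896 in the controls and 6.17, 12.5 and 11.1 in the knockouts. Every knockout ratio was above every control ratio.

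Slc26a6 encodes PAT1, an apical exchanger of chloride for bicarbonate, oxalate and other anions. Slc26a6 (ENSMUSG00000023259, chr9:108853283-108913049, plus strand) stood at 345, 440 and 358 CPM in the controls and at 219, 262 and 340 CPM in the knockouts. All 3 knockouts were below the controls, knockout 477 by the smallest margin, with control 482 at 1.01 times its level. The log2 fold change of -0.48 (SE 0.24) did not pass (edgeR quasi-likelihood test, adjusted p = 0.15), and it was 0.0092 once the trend with length and GC was taken out. Slc26a6 over Slc26a3, per exon length, was 3.04, 3.40 and 2.59 in the controls and 2.05, 3.16 and 4.32 in the knockouts, and the groups overlapped. With scaling by library size alone, which moved the median log2 fold change of all genes from -0.06 to -0.49, Slc26a3 (-0.92) and Slc26a6 (-0.94) passed. Of the other anion exchangers (11 listed), 3 were tested and all 3 fell: Slc4a2 (-1.39), a basolateral chloride-bicarbonate exchanger, the sulfate carrier Slc26a2 (-1.36) and Slc26a11 (-1.90).

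**Figure D2:**
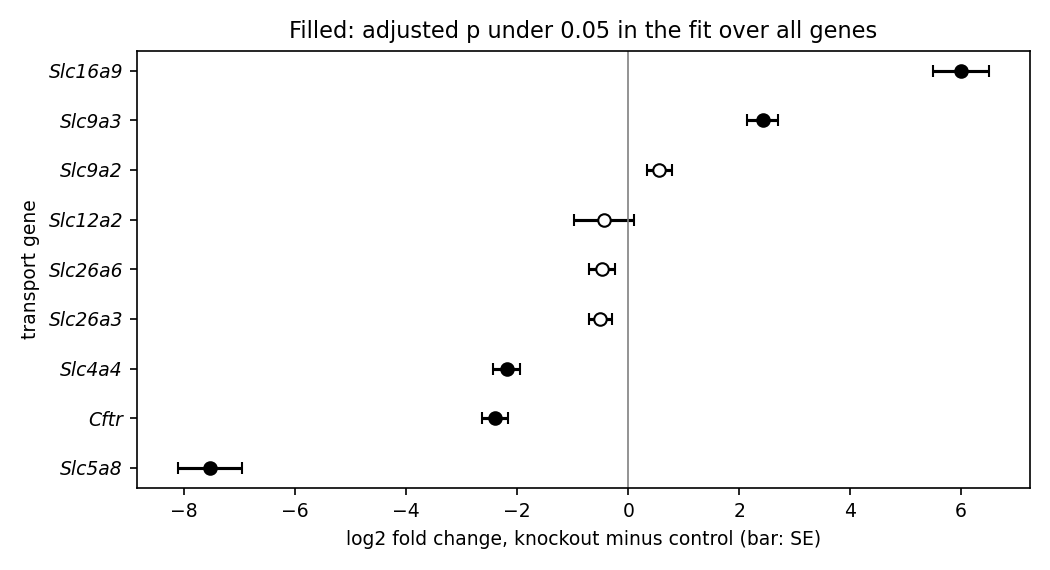
Fold change of the 9 transport genes, as log2 of knockout over control with a bar of 1 SE on each side, filled where the gene passed an adjusted p of 0.05 in the fit over all genes. The values run from -7.53 for Slc5a8 to 5.99 for Slc16a9, with 4 unfilled genes between -0.50 and 0.56.

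Cftr encodes the cyclic AMP-gated chloride and bicarbonate channel of the apical membrane. Cftr (ENSMUSG00000041301, chr6:18170687-18322768, plus strand) stood at 71.6, 82.8 and 54.5 CPM in the controls and at 16.1, 12.1 and 11.3 CPM in the knockouts. The knockouts were all low, and the lowest control was 3.38 times the highest knockout. The means were 69.6 ± 14.2 and 13.2 ± 2.58 CPM (SD, n = 3 each), with a log2 fold change of -2.40 (SE 0.24). An antisense gene shares 129 of its 7765 exon bases and was credited with 1 count over all 6 libraries. Without the strand setting, reads from the shared bases cannot be told apart.

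Slc4a4 encodes NBCe1, the sodium-bicarbonate cotransporter of the basolateral membrane, which supplies bicarbonate to the cell. Slc4a4 (ENSMUSG00000060961, chr5:88886818-89239653, plus strand) stood at 129, 139 and 86.5 CPM in the controls and at 28.1, 28.0 and 21.7 CPM in the knockouts. The groups were apart, with the lowest control at 3.08 times the highest knockout. The means were 118 ± 28.1 and 25.9 ± 3.63 CPM (SD, n = 3 each), with a log2 fold change of -2.19 (SE 0.24). The counts are per gene and do not separate transcripts from its 2 starts. Slc4a4 over Cftr, per exon length, was 1.30, 1.21 and 1.14 in the controls and 1.25, 1.66 and 1.38 in the knockouts. The groups overlapped in this ratio, while each of the 2 genes alone differed by more than 4-fold.

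Slc12a2 encodes NKCC1, the basolateral cotransporter that loads sodium, potassium and chloride into secreting cells. Slc12a2 (ENSMUSG00000024597) reached 26.2, 7.56 and 13.4 CPM in controls 482, 483 and 486, and 21.3, 7.84 and 5.46 CPM in knockouts 423, 476 and 477. The groups overlapped, and the spread within a genotype was wide, with coefficients of variation of 60.5% and 74.2%. The log2 fold change of -0.44 (SE 0.54) did not pass (edgeR quasi-likelihood test, adjusted p = 0.55). It was 0.13 without control 482, -1.20 without knockout 423 and 0.0398 once the trend with length and GC was taken out. Slc12a2 was highest in control 482 and knockout 423, which also had the highest summed level of crypt stem cell markers in their genotype (160 CPM against 76.6 and 105, and 229 CPM against 62.0 and 56.3). In knockout 423 most of that sum was the single gene Olfm4 (189 CPM against 26.3 and 28.3 in the other knockouts). Smoc2 (5.65 CPM against 0.897 and 1.27), Cd44 (6.66 CPM against 2.89 and 2.13), Sox9, Ascl2 and Znrf3 were also highest in knockout 423. Axin2 (3.69 CPM against 7.38 and 3.91) and Rnf43 (16.0 CPM against 19.4 and 16.5) were lowest there. Of the 8 stem cell markers tested Axin2 fell, and Lgr5 did not pass the filter on low counts. The same 2 libraries had the highest levels of the proliferation markers Mki67 and Top2a within their genotype. The summed proliferation markers were 120, 74.9 and 96.1 CPM in the controls and 277, 146 and 181 CPM in the knockouts, and 2 of 10 (Pcna and Tyms) rose. The part of crypt content in the Slc12a2 level was not tested. Slc12a2 over Cftr, per exon length, was 0.260, 0.0650 and 0.175 in the controls and 0.941, 0.461 and 0.343 in the knockouts, with every knockout above every control.

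**Figure D3:**
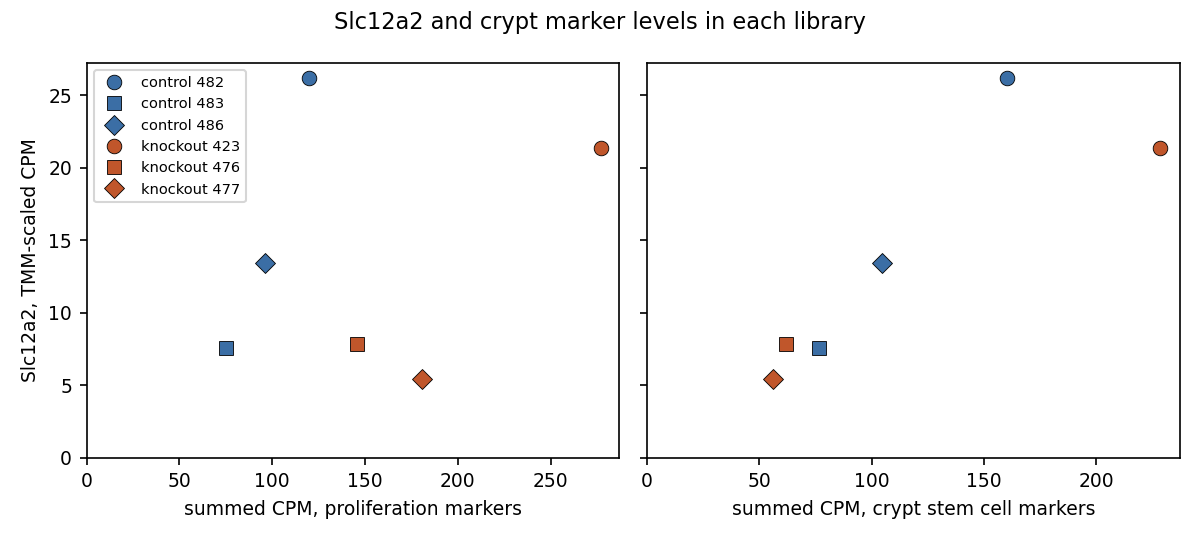
Slc12a2 in TMM-scaled CPM in each library against the summed CPM of 10 proliferation markers (left) and of 9 crypt stem cell markers (right), with blue for controls and orange for knockouts. Control 482 and knockout 423 stand highest in Slc12a2 (26.2 and 21.3 CPM) and, within their genotype, in both marker sums, of which Olfm4 makes up 189 of 229 CPM in the stem cell sum of knockout 423.

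The other genes of bicarbonate and chloride transport were followed by list. Of 5 tested sodium-bicarbonate cotransporter genes and regulators (7 listed), 2 fell, Slc4a7 (-1.56) and the low-abundance Slc4a8 (-3.13), and 3 did not pass, with a median of -0.59. Of 16 tested chloride channel genes and regulators (18 listed), 10 fell, 1 rose and 5 did not pass, with a median of -0.90. They include the scramblase and channel gene Ano6 (-2.12), the endosomal chloride-proton exchanger Clcn5 (-1.71) and Clcn2 (-1.56), which encodes a hyperpolarisation-activated chloride channel. Another is the low-abundance Clca3a2 (-3.60), with 26 counts in the knockouts together. Clca1 (-1.16) is also a goblet cell marker, and 3 of 8 goblet cell markers rose and 3 fell. Ttyh1 (1.45), named after its value was seen, was the 1 that rose. The abundant Clca4a (-0.41) and Clca4b (-0.76), and Clcn3 (0.24), did not pass.

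Of 10 tested cation-chloride cotransporter genes and their kinases (11 listed), 2 rose and 4 fell, with a median of -0.26. The potassium-chloride cotransporter gene Slc12a7 fell (-1.20). So did the kinase genes Wnk1 (-0.77) and Wnk4 (-1.68), which were named after their values were seen. For both, the libraries of the genotypes overlapped, and the adjusted p was near the threshold (0.046 and 0.043, edgeR quasi-likelihood test). Neither was followed in the alternative settings. Stk39 (0.68), the kinase that phosphorylates NKCC1, and Slc12a3 (2.65), below 1 CPM in every library, rose. The calls of Stk39 were lost without any 1 of the 6 libraries except knockout 477, those of Slc12a3 without control 482 or any 1 knockout, both of these also with library-size scaling, and that of Slc12a7 without knockout 423 or once the trend with length and GC was taken out. Of 9 tested genes of the sodium pump, the epithelial sodium channel and their regulators (14 listed), 3 fell, 1 rose and 5 did not pass, with a median of -0.39. The sodium pump beta subunit gene Atp1b1 (-1.42) and the mineralocorticoid receptor gene Nr3c2 (-1.13) were among those that fell. The sodium channel subunit Scnn1a rose (1.34), a call that library-size scaling did not give, and the kinase Sgk1 (-0.79) did not pass. The other listed subunit genes of the channel, Scnn1b and Scnn1g, had 0 counts in both genotypes.

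Of 13 tested genes of guanylin and cyclic nucleotide signalling (14 listed), which governs NHE3 and CFTR activity, 1 rose and 7 fell, with a median of -0.65. Guca2b, encoding the hormone uroguanylin, rose (1.34), while Guca2a (-0.61), encoding guanylin, and their receptor gene Gucy2c (-0.12) did not pass. Prkg2 (-1.36), the cyclic GMP-dependent kinase of the brush border, and the cyclic GMP phosphodiesterase Pde5a (-1.56) fell. The receptor genes Chrm3 (-3.15), Lpar1 (-1.24) and Vipr1 (-1.18) fell as well, and Prkar2a (-0.49) did not pass. The fold of Chrm3 is imprecise, as it had only 14 counts in the knockouts together, against 208 in the controls. Active carbonic anhydrases supply bicarbonate and protons to these exchangers, and the activity of the listed ones was not measured. Of 7 tested (15 listed), 2 fell and 1 rose, with a median of -0.45. The membrane-bound Car4 stood at 327, 237 and 389 CPM in the controls and at 8.97, 3.49 and 1.61 CPM in the knockouts, a log2 fold change of -6.06. Car7 fell (-2.40), Car8 rose (1.40), and the cytosolic Car2 (-1.27) and Car13 (-0.08) did not pass. Car7 was of low abundance, with 133 counts in the controls together and 14 in the knockouts.

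Slc5a8 encodes SMCT1, an apical carrier that takes up lactate, short-chain fatty acids and nicotinate with sodium. Slc5a8 (ENSMUSG00000020062, chr10:88885992-88929515, plus strand) had 2861, 1126 and 5178 counts in the controls and 19, 5 and 3 counts in the knockouts. In CPM these were 60.3, 38.0 and 101 and 0.688, 0.166 and 0.173. The controls themselves differed, with control 486 highest, and the lowest of them was still 55.3 times the highest knockout. The 3 counts of knockout 477 equal the floor of 3 counts that sets the limit of what this depth shows in a library (0.0586 to 0.173 CPM). The means were 66.5 ± 32.0 and 0.342 ± 0.299 CPM (SD, n = 3 each), the log2 fold change was -7.53 (SE 0.58), and 20 tested genes had a lower one.

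Slc16a9 encodes a carrier of the monocarboxylate transporter family that is linked to carnitine transport. Slc16a9 (ENSMUSG00000037762, chr10:70245100-70285968, plus strand) had 11, 13 and 12 counts in the controls and 550, 264 and 480 counts in the knockouts. In CPM these were 0.232, 0.439 and 0.234 and 19.9, 8.78 and 27.6. The controls were all under 1 CPM and the knockouts all above it, the lowest at 20.0 times the highest control. The means were 0.302 ± 0.119 and 18.8 ± 9.47 CPM (SD, n = 3 each), the log2 fold change was 5.99 (SE 0.51), and 20 tested genes had a higher one. Opposite-strand genes share 491 and 419 of its 3869 exon bases. They were credited with 0 counts and 2 counts over the 6 libraries, and here too the strands cannot be told apart.

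Slc5a8 and Slc16a9 changed places in the same libraries. Slc16a9 over Slc5a8, per exon length, was 0.00530, 0.0159 and 0.00319 in the controls and 39.9, 72.8 and 220 in the knockouts. Slc5a12, the second sodium-coupled monocarboxylate transporter, also fell (-3.56), from 185, 437 and 208 CPM to 20.0, 26.0 and 24.3 CPM. Slc5a8 fell further than Slc5a12: their ratio per exon length was 0.248, 0.0662 and 0.371 in the controls and 0.0262, 0.00486 and 0.00540 in the knockouts, without overlap. Slc16a13, a further monocarboxylate transporter family gene, rose with Slc16a9 (2.71). Slc16a13 over Slc16a9 was 23.3, 12.7 and 25.3 in the controls and 1.76, 3.49 and 1.62 in the knockouts, so Slc16a9 rose further in every knockout. Of 13 other tested monocarboxylate carrier and chaperone genes (19 listed), 1 rose, 3 fell and 9 did not pass, with a median of -0.07. The others that fell were Slc16a10 (-2.36), which carries aromatic amino acids and thyroid hormones, and Ffar3 (-5.09), a receptor for short-chain fatty acids. Ffar3 had only 9 counts in the knockouts together, so its fold is imprecise. It also occurs in enteroendocrine cells, of whose 9 markers 1 rose and 2 fell. The chaperone gene Bsg (-0.07) and Slc16a5 (0.37) did not pass.

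Carriers of related families and water channels completed the fixed lists. Of 7 tested sodium-anion carriers (10 listed), 3 fell and 4 did not pass, with a median of -0.40. The citrate and dicarboxylate carrier gene Slc13a2 fell (-4.23), from 478, 713 and 357 CPM to 21.7, 38.7 and 21.7 CPM. Slc34a3, a sodium-phosphate cotransporter gene, had 300 counts in the controls together and 0 in the knockouts, at least 58.6-fold lower against 3 counts over the group. The call of the sulfate carrier Slc13a1 (-1.23) was lost without any 1 of controls 482 and 483 and knockouts 423 and 476, and once the trend with length and GC was taken out. Of 6 tested aquaporins (7 listed), Aqp1 (-3.07), Aqp3 (-2.19) and Aqp7 (-1.53) fell, and Aqp11 (1.52) and Aqp8 (3.27, named after its value was seen) rose. Over all 11 lists, 55 of the 101 tested genes passed (54.5%, against 35.6% of all tested genes), 10 upward and 45 downward, and 64 did not overlap between the genotypes (63.4%, against 50.3%). Their median log2 fold change was -0.61. With the length and GC trend removed, 15 rose and 36 fell. The lists were written with results of these data known and were not tested as sets.

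**Figure D4:**
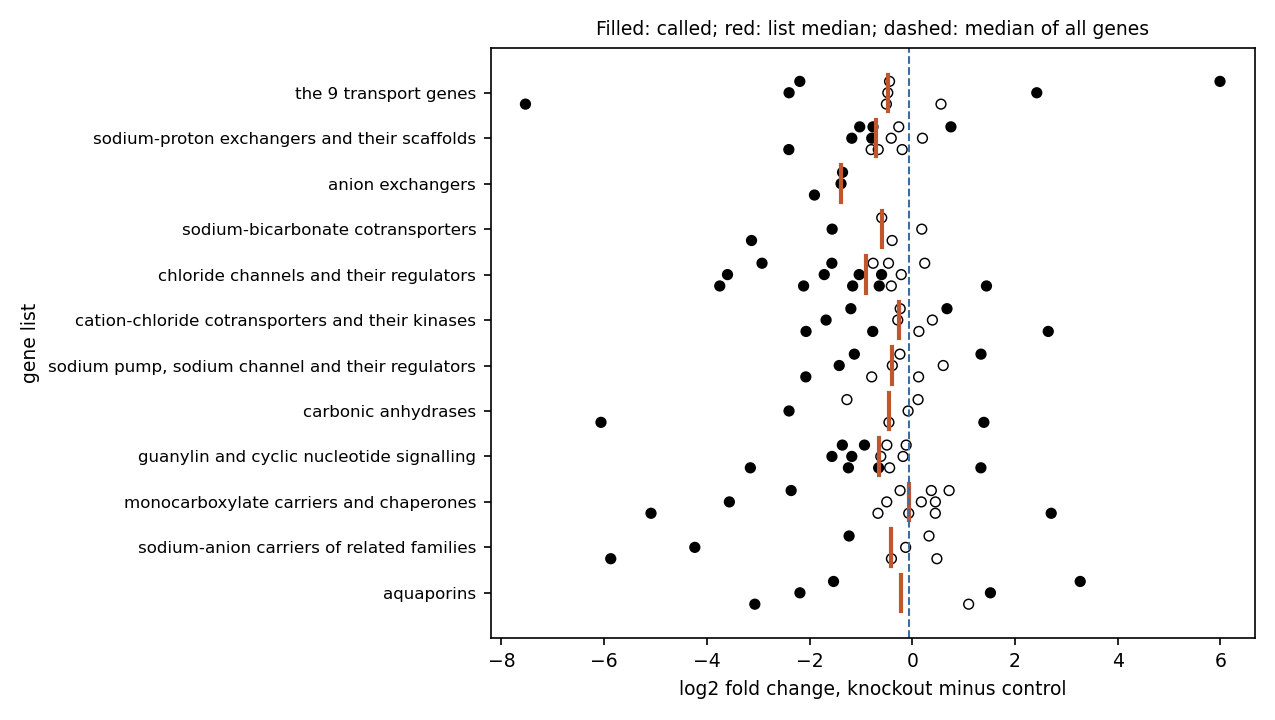
Log2 fold change (knockout over control) of each tested gene, by list, filled where the gene passed an adjusted p of 0.05, with the list's median in red and the median of all tested genes (-0.06) dashed. Slc34a3, with no count in the knockouts, is drawn at its bound. In the lists other than that of the 9 transport genes, most filled points lie left of 0 (45 of 55). Slc16a9 and Slc5a8, of the 9 transport genes, lie farthest apart.

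Compared per kilobase of exon, the order of the 9 genes differed between the genotypes. In controls Slc26a6 was highest at 70.4 ± 9.58 CPM per kb (SD, n = 3), apart from Slc9a2 (33.8 ± 5.51), Slc9a3 (29.4 ± 7.02) and Slc26a3 (23.5 ± 2.30), where neighbours overlapped in range. Below these came Slc5a8 (12.5, from 7.13 to 19.0 over the 3 libraries), Slc4a4 (11.0 ± 2.60) and Cftr (8.97 ± 1.83), which overlapped among themselves in that order, then, apart, Slc12a2 (1.44 ± 0.871) and last Slc16a9 (0.0780 ± 0.0307). In knockouts Slc9a3 was first at 158 ± 34.5 CPM per kb and stood apart from Slc26a6 (50.6 ± 11.3) and Slc9a2 (49.8 ± 7.43), which overlapped. Slc26a3 (16.6 ± 2.84) followed, apart from its neighbours. Then came Slc16a9 (4.85 ± 2.45), Slc4a4 (2.40 ± 0.336), Cftr (1.70 ± 0.333) and Slc12a2 (1.06 ± 0.785), each overlapping its neighbour, and Slc5a8 was last at 0.0642 ± 0.0561. Slc9a3 thus went from the third place to the first, Slc16a9 from the last to the fifth, and Slc5a8 from the fifth to the last.

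**Figure D5:**
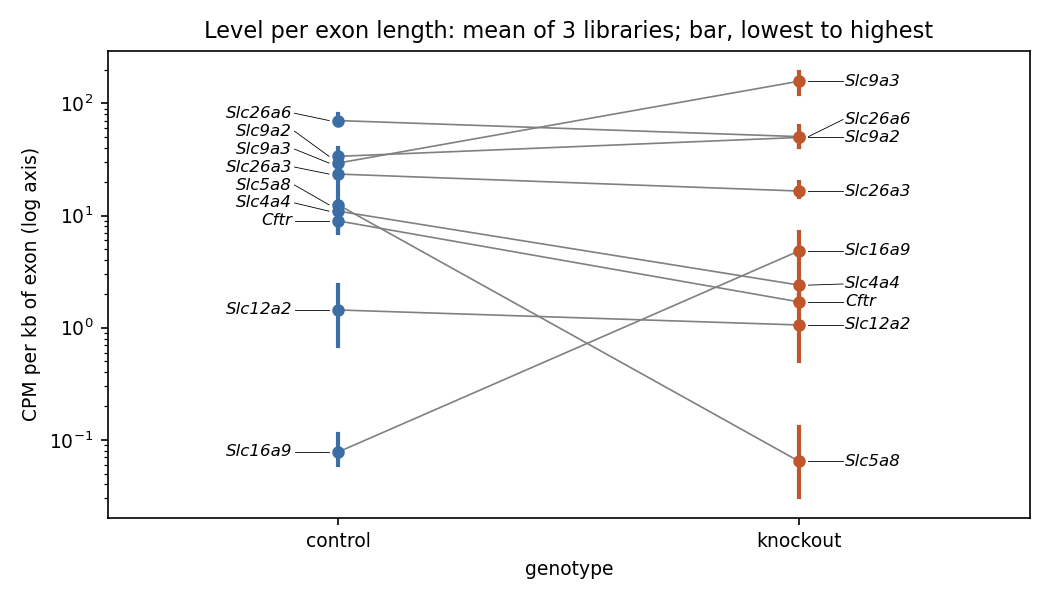
Mean level of the 9 genes per kilobase of exon in each genotype, as TMM-scaled CPM per kb on a log axis, with vertical bars from the lowest to the highest of 3 libraries and a line joining each gene. Slc26a6 leads in controls (70.4) and Slc9a3 in knockouts (158), and the lines of Slc16a9 and Slc5a8 cross.

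Each changed transporter was compared with 9878 tested genes that averaged 2 CPM or more, leaving out predicted genes and the 9 transport genes. The genes whose levels followed it most closely were found by Pearson correlation of log2 CPM over the 6 libraries. These 6 points fall into 2 genotypes and share their libraries, so a high value largely restates a difference between the genotypes, and it is given as a description. Slc9a3 was nearest to Srebf1 (r = 0.998), encoding the lipid synthesis regulator SREBP1, then to the acyl-CoA synthetase gene Acsl1 (0.998) and the manganese transporter gene Slc30a10 (0.997). Slc5a8 was nearest to Rnf208 (0.998), Hgsnat (0.997) and Akr1c14 (0.997), and Cftr to Hspa4l (0.998), Palld (0.997) and Nudt3 (0.997). Slc4a4 was nearest to Mcur1, Il15ra and Ttll2 (each 0.999), and Slc16a9 to Gstm5 (0.993), Kpna2 (0.992) and Mettl9 (0.992). Such likeness was not rare: 50 genes exceeded 0.98 for Slc9a3, 175 for Cftr, 222 for Slc4a4, 106 for Slc5a8 and 60 for Slc16a9. These counts also take in predicted genes and the other transport genes of the 9. Among the 9 genes themselves Cftr and Slc4a4 were the closest pair (0.993).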

How the data were processed

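The 6 polyA libraries were paired-end TruSeq libraries of scraped epithelium, per the labels' protocols. The sample titles gave the genotype group and 1 animal number per library. The authors deposited whole-number counts per gene and, in a second table, variance-stabilised values on a log2 scale, which served only as an alternative. The submitters' processing notes list STAR 2.7.9a and featureCounts (Subread 1.6.2) on mm10, with bcl2fastq, fastp 0.21.0, FastQC 0.11.7 and DESeq2 1.23.10. For the annotation and the strand setting, the tool options were not given in the sources used here.

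The members and all gene lists were chosen with earlier results of these data known. Counts were fitted in R 4.3.3 with edgeR 4.0.16 (filterByExpr, TMM, robust quasi-likelihood test) and Benjamini-Hochberg adjustment over all 15028 genes tested. The SE is the log2 fold change over the square root of F, and log2 CPM had a prior count of 2. CPM are counts per 1000000 of the TMM-scaled library total, with factors of 0.741 to 0.9751 in knockouts and 1.094 to 1.284 in controls. In controls 12.8% to 15.9% of a library's counts fell to its 20 most abundant genes, in knockouts 22.3% to 29.1%. Floors of 3 counts cover counting error only. No library duplicated another: within a genotype, chi-square over its degrees of freedom was at least 68.1. Of 55450 identifiers 55104 had a symbol. Exon lengths and coordinates are from GENCODE M21 on mm10, and promoter sequences from RefSeq on GRCm38.p6. Scripts were tested on simulated counts.

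Named genes were the 9 members, the up to 4 genes of each other list with the smallest adjusted p, any further listed gene with a mean of at least 100 CPM in a genotype, and for each called member the 3 genes most like it; a few others are marked where they are named. Alternatives were library-size, RLE and upper-quartile scaling, a looser filter of 1 count and a stricter one of 1 CPM in 3 libraries, DESeq2 1.42.0, limma-voom (limma 3.58.1), limma-trend fitted to the variance-stabilised table, omission of the 20 most abundant genes, removal of each library's length and GC trend, and each library left out. One deletion target and some genes of the lists are not reported here.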

Additional observations from a re-analysis of the deposited data

How the results depend on the processing

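Slc9a3, Cftr, Slc4a4, Slc5a8 and Slc16a9 kept their direction and their call in all 16 alternatives, 6 of them leaving out a library. Their log2 fold changes ran from 1.95 to 2.79 for Slc9a3, -2.82 to -2.09 for Cftr, -2.62 to -1.66 for Slc4a4, -8.56 to -6.64 for Slc5a8 and 4.81 to 6.35 for Slc16a9. The number of the 9 genes called was 5 without any 1 library, 7 with library-size scaling, 6 with DESeq2 and 6 with the length and GC trend removed.

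The count of all called genes, 5348 with every library, ran from 3299 to 5940 when a library was left out, with 3299 without control 482, 3545 without control 483 and 3396 without knockout 477. Library-size scaling gave 1133 rising and 4554 falling genes (19.9% rising, against 48.5% with TMM), and removal of the length and GC trend 2715 and 2007 (57.5%). The other transport genes called numbered 55 with every library and 43 to 54 with a library left out, and library-size scaling gave 6 rising and 59 falling. Among the 61 of these genes followed singly, leaving out libraries took the call in 21 values of 6 genes, and the other settings in 7 values of 6 genes.

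Among genes that were not called, some reversed. With the length and GC trend removed, Slc26a6 (0.0092), Slc12a2 (0.0398), Ahcyl2 (0.31) and Gucy2c (0.063) turned positive. With library-size scaling, Chp1 (-0.24), Ahcyl1 (-0.26), Clcn3 (-0.22), Slc16a5 (-0.087) and Slc20a2 (-0.11) turned negative. With a library left out, Slc12a2 ran from -1.20 (without knockout 423) to 0.13 (without control 482), Guca2a from -1.01 (without control 483) to 0.047 (without control 486), Gucy2c from -0.28 (without control 486) to 0.081 (without control 483), Car13 from -0.25 (without control 482) to 0.17 (without control 486) and Bsg from -0.25 (without knockout 477) to 0.10 (without knockout 476). Car13 was also positive without knockout 423 (0.07), and Bsg without control 486 (0.09). The cause was not tested.

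No paired analysis was possible because the animal numbers in the titles are not shared between the genotypes. With 3 mice per genotype, differences near the spread of Slc12a2 could not be resolved, and Slc5a8 in knockouts and Slc16a9 in controls rest on 3 to 19 counts per library, so their folds are less precise than those of the abundant exchangers.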
